A study of Mus musculus with 9 samples.

Results

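The transforming growth factor beta (TGF-beta) and bone morphogenetic protein (BMP) pathway was described through 43 named genes, of 47069 genes counted, in 9 mouse RNA sequencing libraries. The 43 genes are a list by function, matched by symbol, and comprise 15 ligands, 11 receptors, 8 Smads, 6 antagonists and 3 target genes. All 43 passed the filter on low counts and were among the 18204 genes tested. The libraries came from 3 distal metastases, 3 proximal metastases in the fat beside the epididymis and 3 primary prostate tumours. All 3 groups carried the allele written Ctnnb1pc(ex3)delta/+, on C57BL/6, at about 9 to 10 months of age. In this notation 1 Ctnnb1 allele lacks exon 3 in the prostate, which leaves beta-catenin protected from degradation. The promoter that drove the recombination is not named in the sources used here, and no group without this allele was among the libraries. The labels state 3 matched mice without saying which libraries share a mouse, so the numbers 1 to 3 only name the libraries of a group.

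TGF-beta family ligands are secreted dimers that bring together type I and type II receptor kinases at the cell surface. TGF-betas and activins act mainly through the receptor-activated Smad2 and Smad3, and BMPs through Smad1, Smad5 and Smad9, each with the shared partner Smad4. In the prostate, TGF-beta is known as a brake on epithelial growth, and BMP signalling is known from the branching of the developing gland and from bone metastasis.

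Total counts ran from 28334730 to 40408723 per library. Levels are given as CPM (the count of a gene as a share of the library total, in parts per 1000000), scaled between libraries by the trimmed mean of M values. The primary libraries did not resemble each other. Over all genes tested, primary 1 lay within the range of the 6 metastases for 70.8% of genes, primary 2 for 20.7% and primary 3 for 29.5%. Primary 2 also stood apart in composition. Mitochondrially encoded genes held 0.131% of its counts, against 0.868% to 1.18% in the other libraries, its scaling factor was 0.795, against 0.994 to 1.05, and Lars2 and CT010467.1 reached 23570 and 28678 CPM, against at most 2291 and 2273 CPM elsewhere. The part of these features in the levels of the 43 genes was not tested. Probasin (Pbsn), a secreted prostate protein, stood at 0 to 0.888 CPM in the metastases and at 0.483, 211 and 11.8 CPM in primary 1 to 3, and Hoxb13, a prostate transcription factor, at 3.03 to 4.94 CPM in the metastases and at 44.5, 222 and 68.4 CPM in primary 1 to 3. A list of 6 epithelial markers summed to 2404, 2523 and 2478 CPM in distal, 2345, 1817 and 2709 CPM in proximal and 2751, 15222 and 6195 CPM in primary 1 to 3. The markers did not all follow the sum. In primary 2 Epcam (226 CPM) lay within the metastases (163 to 310 CPM), while Cdh1, Krt8, Krt18, Krt19 and Krt5 lay above them. In primary 3 Krt18 (962 CPM) lay within the metastases (786 to 1058 CPM) and the other markers above. In primary 1 Cdh1 and Krt18 lay within and the other markers above. Primary 3 also held 10566 CPM of 5 seminal vesicle genes, against at most 26.9 CPM in any other library. Distal metastases are labelled as diaphragm in one field and as lung in another. Their 6 skeletal muscle markers summed to 6.75, 574 and 791 CPM, and their 4 lung epithelium markers to at most 0.0750 CPM, with Sftpa1 and Sftpb at 0. The engineered gene Ctnnb1 stood at 3553 to 4457 CPM in distal, 3626 to 4961 CPM in proximal and 4399, 937 and 1771 CPM in primary 1 to 3. Gene totals do not show the loss of 1 exon. Pbsn, Hoxb13, Lars2 and CT010467.1 were chosen after their values were seen. In bulk tissue, fewer cells of a type and less RNA per cell cannot be told apart.

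No gene of the 43 passed an adjusted p of 0.05 by edgeR's quasi-likelihood test in any of the 4 comparisons. Among all genes tested, 0.0879% were called in distal against primary, 0.0494% in proximal against primary, 0% in distal against proximal and 3.71% in both metastatic sites against primary. The comparisons against primary share the same 3 primary libraries. At an unadjusted p below 0.05, 3 of the 43 were higher and 4 lower in distal than in primary tumours, against 3.89% and 13.5% of all genes. In proximal against primary tumours the counts were 3 higher and 6 lower, against 3.86% and 14.3% of all genes, and in both sites against primary 4 higher and 7 lower, against 6.04% and 18.6%. Between distal and proximal metastases none of the 43 reached an unadjusted p of 0.05 in either direction, against 1.79% of all genes higher and 0.269% lower. By DESeq2, which gave 40 of the 43 an adjusted p, 3 were called in distal against primary, 2 in proximal against primary, none in distal against proximal and 4 in both sites against primary, where 7.48%, 7.82%, 0.576% and 12.2% of all genes were called. By limma-voom none of the 43 was called in any comparison, where 0.00549%, 0.00549%, 0% and 0.533% of all genes were.

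Counted by overlap of the libraries, 6 of the 43 lay higher in every distal than in every primary library and 2 lower, against 8.4% and 10.4% of all genes. In proximal against primary 9 lay higher and 3 lower, against 8.68% and 10.7% of all genes. Taking the 6 metastases against the 3 primary tumours, Tgfbr3, Fst, Fstl3 and Id2 lay above without overlap and Acvrl1 below, against 4.22% and 5.99% of all genes. Between distal and proximal metastases Smad7 alone was separated, higher in distal, against 4.03% of all genes higher and 3.6% lower. The median log2 fold change of the 43 was 0.26 in distal and 0.27 in proximal against primary, where the median of all genes tested was −0.03 and −0.05. Between distal and proximal metastases the median of the 43 was −0.03, against −0.01 over all genes.

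**Figure D1:**
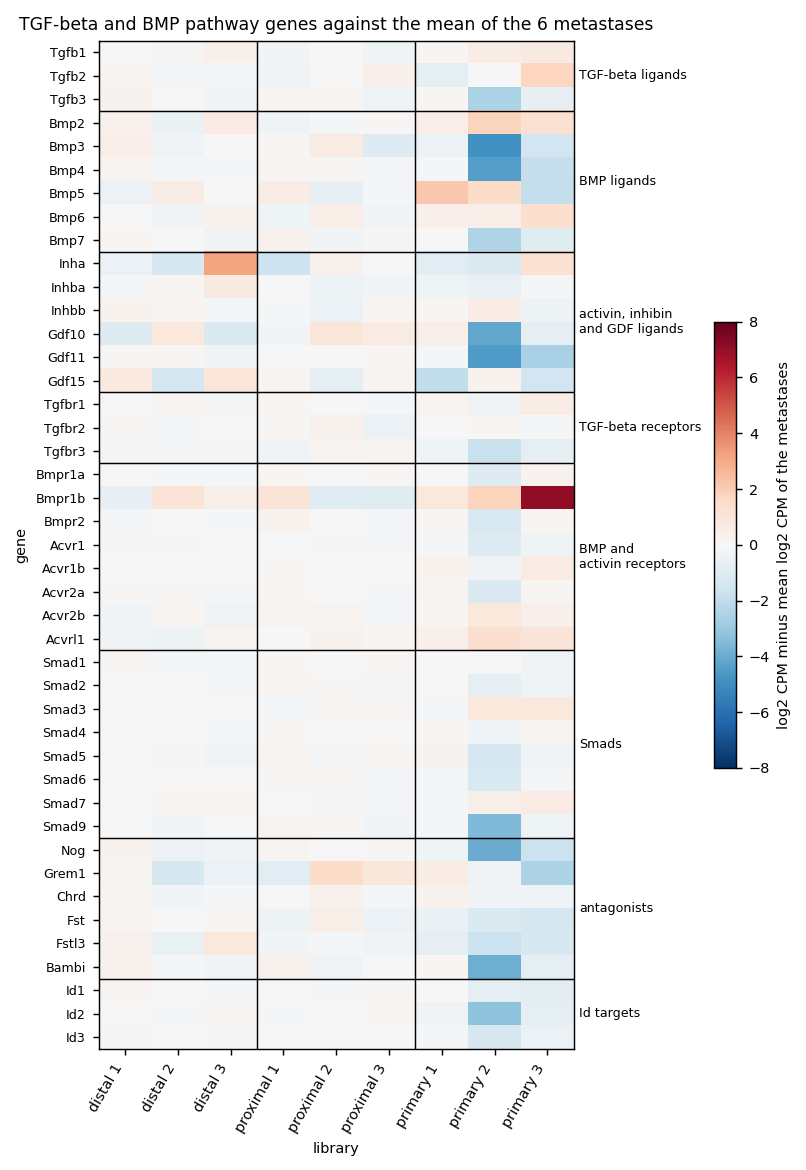
Level of each of the 43 genes in each library (columns: distal, proximal and primary 1 to 3) as log2 CPM minus the mean log2 CPM of the 6 metastases, red above and blue below that mean, with genes in rows grouped by role. The 6 metastases and primary 1 are mostly pale, with exceptions such as Inha in distal 3 and Bmp5 and Gdf15 in primary 1, and primary 2 holds the darkest blue cells (Bmp3, Bmp4, Gdf10, Gdf11, Nog, Bambi and Smad9); the darkest red cell is Bmpr1b in primary 3.

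Of the 43 genes, primary 1 lay within the range of the 6 metastases for 30, below it for 6 and above it for 7. Primary 2 lay within for 8, below for 26 and above for 9, and primary 3 within for 8, below for 21 and above for 14. As a share, 60.5% of the 43 lay below the metastases in primary 2, where 42.7% of all genes did, and 48.8% in primary 3, where 36.7% of all genes did. The median SD of log2 CPM of the 43 was 0.19 in distal, 0.20 in proximal and 0.66 in primary libraries, against 0.16, 0.17 and 0.60 over all genes. The levels of the pathway genes thus differed more among primary tumours than among metastases, as the levels of all genes did.

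**Figure D2:**
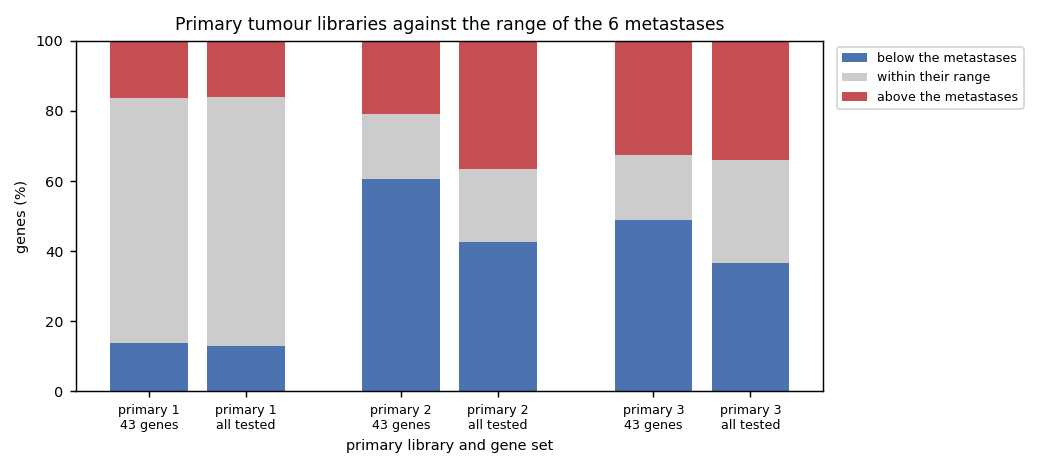
Share of genes (y axis, percent) below, within or above the range of the 6 metastases in each primary library, for the 43 pathway genes and for all 18204 genes tested. Within-range shares are 69.8% and 70.8% in primary 1, 18.6% and 20.7% in primary 2, and 18.6% and 29.5% in primary 3.

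Promoter sequence is shown for 4 genes whose levels differed between primary libraries and which have a promoter window free of annotated exons. These 4 were chosen after their values were seen. Bmp4 and Gdf11 encode ligands and Smad9 a BMP-activated Smad, and all 3 were lowest in primary 2. Smad3, the TGF-beta-activated Smad, was higher in primary 2 and 3 than in any metastasis. Each window holds the 250 bases before the annotated start, 5′ to 3′ on the strand of the gene, from RefSeq on GRCm38.p6, at chr14:46390670-46390919 (Bmp4, minus strand), chr10:128891719-128891968 (Gdf11, minus), chr3:54755332-54755581 (Smad9, plus) and chr9:63757995-63758244 (Smad3, minus). Capitals mark GGCGCC, a GC-rich element bound by BMP-activated Smads.
Bmp4: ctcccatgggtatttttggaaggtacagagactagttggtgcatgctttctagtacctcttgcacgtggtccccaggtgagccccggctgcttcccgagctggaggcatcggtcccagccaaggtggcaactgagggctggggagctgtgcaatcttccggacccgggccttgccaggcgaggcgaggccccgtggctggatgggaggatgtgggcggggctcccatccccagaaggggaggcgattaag
Gdf11: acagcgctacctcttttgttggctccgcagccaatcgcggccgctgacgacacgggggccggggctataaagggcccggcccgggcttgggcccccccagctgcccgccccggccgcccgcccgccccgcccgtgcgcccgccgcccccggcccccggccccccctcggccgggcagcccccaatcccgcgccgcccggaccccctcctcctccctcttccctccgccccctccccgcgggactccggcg
Smad9: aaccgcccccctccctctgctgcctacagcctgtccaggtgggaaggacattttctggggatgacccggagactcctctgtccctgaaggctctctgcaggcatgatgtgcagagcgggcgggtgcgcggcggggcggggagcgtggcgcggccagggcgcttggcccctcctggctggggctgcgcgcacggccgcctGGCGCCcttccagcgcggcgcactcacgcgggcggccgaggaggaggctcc
Smad3: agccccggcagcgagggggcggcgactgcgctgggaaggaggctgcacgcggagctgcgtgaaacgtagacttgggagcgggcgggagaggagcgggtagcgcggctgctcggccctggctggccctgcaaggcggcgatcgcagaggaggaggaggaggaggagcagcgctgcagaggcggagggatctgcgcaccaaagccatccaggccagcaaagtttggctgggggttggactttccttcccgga
The windows hold 63.2%, 81.2%, 73.2% and 69.2% G or C in Bmp4, Gdf11, Smad9 and Smad3. GGCGCC, the same on both strands, was found once in Smad9, starting 51 bases before the annotated start, and is present in 9.586% of the 32851 mouse promoter windows of this length. Of the 43 genes, 30 had a window, and 8 of those 30 held GGCGCC. These 30 genes had 36 windows, and a gene was counted when any of its windows held the letters. The shares of all windows count each window, so the 2 are not on the same footing. The Smad box CAGAC, searched on both strands, was in none of the 4 windows printed, in windows of 15 of the 30 genes, and in 42.19% of all windows. The TCF/LEF letters CTTTGAT or CTTTGAA, the core bound by the partners of beta-catenin, were in a window of 1 of the 30 genes and in 7.479% of all windows. None of these matches shows binding.

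None of the 3 TGF-beta ligands was called by edgeR with all 9 libraries. Tgfb1 and Tgfb2 were highest in primary 3, and Tgfb3 was lowest in primary 2. Tgfb1 encodes the most widely expressed of them. Tgfb1 stood at 34.1, 35.3 and 44.7 CPM in distal 1 to 3, 28.6, 34.9 and 26.3 CPM in proximal 1 to 3 and 37.5, 50.1 and 55.6 CPM in primary 1 to 3. Every proximal library was below every primary library, while distal 3 overlapped primary 1. The log2 fold change was −0.33 ± 0.20 (SE, n = 3 each) in distal and −0.67 ± 0.20 in proximal against primary, at edgeR adjusted p = 0.379 and 0.181, and the value in distal was −0.20 without primary 3. By DESeq2 Tgfb1 was called lower in proximal than in primary tumours (−0.68, adjusted p = 0.0454). Tgfb1 was also called there by limma-voom with sample quality weights (−0.82, adjusted p = 0.0325) and by edgeR without primary 1 (−0.80, adjusted p = 0.0174). In these fits 19.8% and 28.7% of all genes were called, in that order. Tgfb2 stood at 44.8, 36.4 and 35.4 CPM in distal 1 to 3, 33.8, 41.8 and 52.3 CPM in proximal 1 to 3 and 24.7, 41.9 and 134 CPM in primary 1 to 3. Primary 3 alone was high, and the other primary libraries lay within or below the metastases. Its log2 fold change was −0.79 ± 0.55 in distal and −0.65 ± 0.55 in proximal against primary (edgeR adjusted p = 0.417 and 0.465), and 0.23 and 0.36 without primary 3. By limma-voom with sample quality weights Tgfb2 was called lower in both sites against primary (−1.33, adjusted p = 0.0463). Tgfb3 stood at 105, 87.8 and 73.5 CPM in distal 1 to 3, 96.2, 103 and 69.8 CPM in proximal 1 to 3 and 99.1, 15.5 and 55.9 CPM in primary 1 to 3. Primary 2 was low for Tgfb3, primary 3 lay below every metastasis and primary 1 lay among them. Per kilobase of exon, Tgfb3 was the most abundant of the 3 in the metastases, at 26.3 CPM per kb in distal, 26.5 in proximal and 16.8 in primary tumours, against 7.54, 5.94 and 9.47 CPM per kb for Tgfb1 and 6.71, 7.36 and 11.6 CPM per kb for Tgfb2. Among the primary libraries this order held in primary 1 only. Tgfb1 and Tgfb2 exceeded Tgfb3 per kilobase in primary 2, and Tgfb2 did in primary 3.

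Among the BMP ligands, Bmp4 and Bmp7 were the most abundant per kilobase of exon in the metastases and in primary 1 and 3, while in primary 2 Bmp2 exceeded both. Bmp2 was highest in primary 2, where Bmp4 and Bmp7 were lowest. Bmp4, at chr14:46383520-46390669 on GRCm38, is a mesenchymal ligand known to restrain prostate duct branching. Bmp4 stood at 234, 177 and 176 CPM in distal 1 to 3, 232, 211 and 179 CPM in proximal 1 to 3 and 186, 9.25 and 54.4 CPM in primary 1 to 3. Primary 1 lay within the metastases, primary 3 below them and primary 2 furthest below. Bmp4 had a log2 fold change of 1.23 ± 0.81 in distal and 1.32 ± 0.81 in proximal against primary, at edgeR adjusted p = 0.400 and 0.361. Without primary 1 these values were 2.63 and 2.72, at edgeR adjusted p = 0.0285 and 0.0248, and without primary 2 they were 0.71 and 0.79. Of all genes, 27.4% and 28.7% were called without primary 1 in these comparisons, which holds for the same fit of every gene below. Bmp7 stood at 276, 246 and 210.4 CPM in distal 1 to 3, 316, 215 and 270.2 CPM in proximal 1 to 3 and 254, 48 and 127 CPM in primary 1 to 3. Bmp7, also a ligand of the developing prostate, had the same order of primary libraries as Bmp4, with primary 1 inside the range of the metastases. Bmp7 had a log2 fold change of 0.77 ± 0.50 in distal and 0.90 ± 0.50 in proximal against primary (edgeR adjusted p = 0.394 and 0.333), and 1.497 and 1.63 without primary 1 (edgeR adjusted p = 0.0342 and 0.0257). Without primary 2 the values for Bmp7 were 0.36 and 0.49.

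Bmp3, an atypical ligand that opposes BMP signalling, was also lowest in primary 2. Bmp3 stood at 56, 31 and 38.3 CPM in distal 1 to 3, 41, 61 and 18.7 CPM in proximal 1 to 3 and 27.8, 1.29 and 13.2 CPM in primary 1 to 3. Every distal library was above every primary library, while proximal 3 overlapped primary 1. Its log2 fold change was 1.56 ± 0.88 in distal and 1.51 ± 0.88 in proximal against primary (edgeR adjusted p = 0.354 and 0.345). It was 2.53 and 2.48 without primary 1, where Bmp3 was not called by edgeR, and 1.03 and 0.97 without primary 2. Bmp2, at chr2:133552159-133562885, is a strong inducer of bone and a ligand of the same branch as Bmp4. Bmp2 stood at 17.2, 9.34 and 21.7 CPM in distal 1 to 3, 10.7, 12.5 and 14.5 CPM in proximal 1 to 3 and 19.5, 47.6 and 32.7 CPM in primary 1 to 3. Every proximal library was below every primary library, while distal 3 was above primary 1. Its log2 fold change was −1.05 ± 0.39 in distal and −1.40 ± 0.40 in proximal against primary, at edgeR adjusted p = 0.243 and 0.168. By DESeq2 Bmp2 was called lower in proximal than in primary tumours (−1.41, adjusted p = 0.0197) and in both sites against primary (adjusted p = 0.0133). Without primary 1 the values for Bmp2 were −1.30 and −1.65 (edgeR adjusted p = 0.0334 and 0.0147), and without primary 2 they were −0.70 and −1.06. Bmp6 stood at 1.05, 0.953 and 1.37 CPM in distal 1 to 3, 0.836, 1.58 and 0.955 CPM in proximal 1 to 3 and 1.45, 1.56 and 2.92 CPM in primary 1 to 3. Every distal library was below every primary library for Bmp6, while proximal 2 overlapped primary 1 and 2. All levels of Bmp6, a ligand known for iron control through hepcidin, were low, and its exons overlap Txndc5 on the other strand. Bmp5 reached at most 0.886 CPM in any library.

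The activin, inhibin and growth differentiation factor (GDF) ligands were led by Gdf11 per kilobase of exon in the metastases and primary 1, and by Inhbb in primary 2 and 3. Gdf11 is an activin-like ligand that patterns the body axis, at chr10:128882295-128891718. Gdf11 stood at 318, 311 and 247 CPM in distal 1 to 3, 291, 287 and 331 CPM in proximal 1 to 3 and 283, 12.7 and 48.8 CPM in primary 1 to 3. Primary 1 was close to the metastases, primary 3 below all of them and primary 2 the lowest. Gdf11 had a log2 fold change of 1.35 ± 0.88 in distal and 1.40 ± 0.88 in proximal against primary (edgeR adjusted p = 0.398 and 0.366). Without primary 1 it was 3.26 and 3.32 (edgeR adjusted p = 0.00729 and 0.00664), and without primary 2 it was 0.82 and 0.88. Inhbb stood at 104, 95.7 and 80.7 CPM in distal 1 to 3, 76.9, 61.4 and 95.1 CPM in proximal 1 to 3 and 89.8, 127 and 64.8 CPM in primary 1 to 3. For Inhbb, the beta B subunit of activin, the 3 groups overlapped throughout. Inhba, the beta A subunit, held 3.55 to 6.4 CPM in distal, 2.91 to 3.86 CPM in proximal and 2.62 to 3.6 CPM in primary libraries. Inha, the inhibin alpha subunit that turns the dimer into an antagonist, stood at 7.87 CPM in distal 3 and at most 2.07 CPM in any other library. Gdf15, a circulating stress factor, held 5.14 to 27.7 CPM in distal, 7.94 to 16.3 CPM in proximal and 3.49 to 16.6 CPM in primary libraries, with distal 2 and primary 2 out of step with their groups. Gdf10, also called BMP3b, held 9.74 to 37.7 CPM in distal, 18.1 to 41.3 CPM in proximal and 1.17 to 30.8 CPM in primary libraries.

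**Figure D3:**
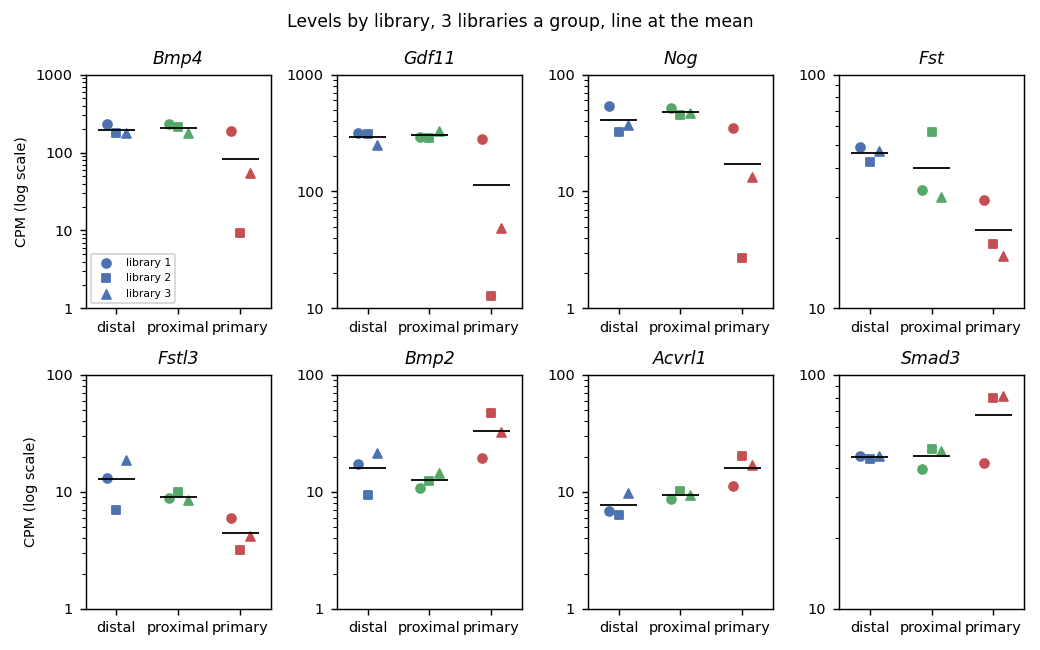
Level (y axis, CPM on a log scale) of 8 of the 43 genes in each library, by group (x axis), with the marker shape giving the library number and the line the group mean of 3. For Bmp4, Gdf11 and Nog primary 1 sits with the metastases and primary 2 lies lowest (9.25, 12.7 and 2.69 CPM); for Fst and Fstl3 all 3 primary libraries lie below all metastases; for Acvrl1 all 3 lie above.

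The TGF-beta receptor kinases overlapped between groups, while the coreceptor Tgfbr3 was lower in every primary library than in any metastasis. Tgfbr1 stood at 67.8, 78.9 and 64.4 CPM in distal 1 to 3, 80.4, 72.2 and 63.1 CPM in proximal 1 to 3 and 81.2, 58.5 and 109 CPM in primary 1 to 3. Tgfbr2 stood at 177, 149.6 and 168 CPM in distal 1 to 3, 177, 206 and 119.7 CPM in proximal 1 to 3 and 171, 186 and 156 CPM in primary 1 to 3. For both kinases, the type I receptor Tgfbr1 and the type II receptor Tgfbr2, the groups overlapped, and log2 fold changes against primary stayed between −0.24 and −0.03. Tgfbr3, or betaglycan, presents TGF-beta2 to these kinases and binds inhibin. Tgfbr3 stood at 66.6, 68.7 and 79.9 CPM in distal 1 to 3, 59.7, 85.6 and 86 CPM in proximal 1 to 3 and 58.2, 21.1 and 45.1 CPM in primary 1 to 3. All 6 metastases were above all primary libraries, by a narrow margin over primary 1. Tgfbr3 had a log2 fold change of 0.79 ± 0.34 in distal and 0.89 ± 0.34 in proximal against primary, at edgeR adjusted p = 0.283 and 0.241. Without primary 1 it was 1.13 and 1.24 (edgeR adjusted p = 0.0433 and 0.0321), and without primary 2 it was 0.48 and 0.58.

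Among BMP and activin receptors, Acvrl1 and Bmpr1b were set apart. Acvrl1 encodes ALK1, a type I receptor best known from endothelium, at chr15:101128522-101145336. Acvrl1 stood at 6.83, 6.38 and 9.77 CPM in distal 1 to 3, 8.64, 10.2 and 9.4 CPM in proximal 1 to 3 and 11.3, 20.1 and 17 CPM in primary 1 to 3. All 6 metastases were below all 3 primary libraries. Acvrl1 had a log2 fold change of −1.07 ± 0.28 in distal and −0.78 ± 0.28 in proximal against primary, at edgeR adjusted p = 0.150 and 0.223, and −0.93 ± 0.23 in both sites against primary at edgeR adjusted p = 0.0673. By DESeq2 Acvrl1 was called lower in distal than in primary tumours (−1.09, adjusted p = 0.00645) and in both sites (adjusted p = 0.00478). Without primary 1 the values in distal and proximal were −1.25 and −0.96 (edgeR adjusted p = 0.00990 and 0.0228). Without primary 2 they were −0.89 and −0.59. A list of 6 endothelial markers summed to 112, 164 and 178 CPM in distal, 118, 167 and 133 CPM in proximal and 201, 152 and 143 CPM in primary 1 to 3, so these groups overlapped. A list of 6 macrophage markers summed to 147 to 242 CPM in distal, 122 to 223 CPM in proximal and 266 to 547 CPM in primary libraries. In this sum every primary library was above every metastasis. Of the list, C1qa, C1qb and Csf1r were separated in this way, while Adgre1, Cd68 and Mrc1 overlapped between primary tumours and metastases. The part of these cells in the level of Acvrl1 was not tested.

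Bmpr1b encodes a type I BMP receptor. Bmpr1b stood at 0.0750, 0.381 and 0.233 CPM in distal 1 to 3, 0.366, 0.0510 and 0.0490 CPM in proximal 1 to 3 and 0.322, 0.664 and 27.7 CPM in primary 1 to 3. Primary 3 alone was high, and the other primary libraries were near the highest metastases. The log2 fold change was −5.36 ± 1.81 in distal and −5.92 ± 1.87 in proximal against primary (edgeR adjusted p = 0.216 and 0.191), and −1.07 and −1.63 without primary 3. Primary 3 is also the library with the seminal vesicle transcripts, all 5 of whose genes exceeded 1 CPM there. Their part in the level of Bmpr1b was not tested. Bmpr1a stood at 156, 143 and 134 CPM in distal 1 to 3, 164, 145 and 161 CPM in proximal 1 to 3 and 145, 73.1 and 185 CPM in primary 1 to 3. For Bmpr1a, the more broadly expressed type I BMP receptor, primary 2 was the lowest of the 9 libraries and primary 3 the highest. Acvr1b stood at 33.4, 32.5 and 34.8 CPM in distal 1 to 3, 35.4, 32.9 and 32.5 CPM in proximal 1 to 3 and 41.2, 27.3 and 52.6 CPM in primary 1 to 3. Acvr1b, the main type I activin receptor, lay within 32.5 to 35.4 CPM in all metastases and on both sides of that range in primary tumours. The type II receptor Bmpr2 held 119 to 124 CPM in distal, 120.1 to 156 CPM in proximal and 54 to 143 CPM in primary libraries, and Acvr2a, an activin type II receptor, 20.5 to 25.1, 20.5 to 26 and 10.5 to 26.6 CPM. Acvr1, or ALK2, held 38.7 to 44.7 CPM in distal, 39.2 to 44.4 CPM in proximal and 20.2 to 39.1 CPM in primary libraries, and Acvr2b at most 4.3 CPM in any library.

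**Figure D4:**
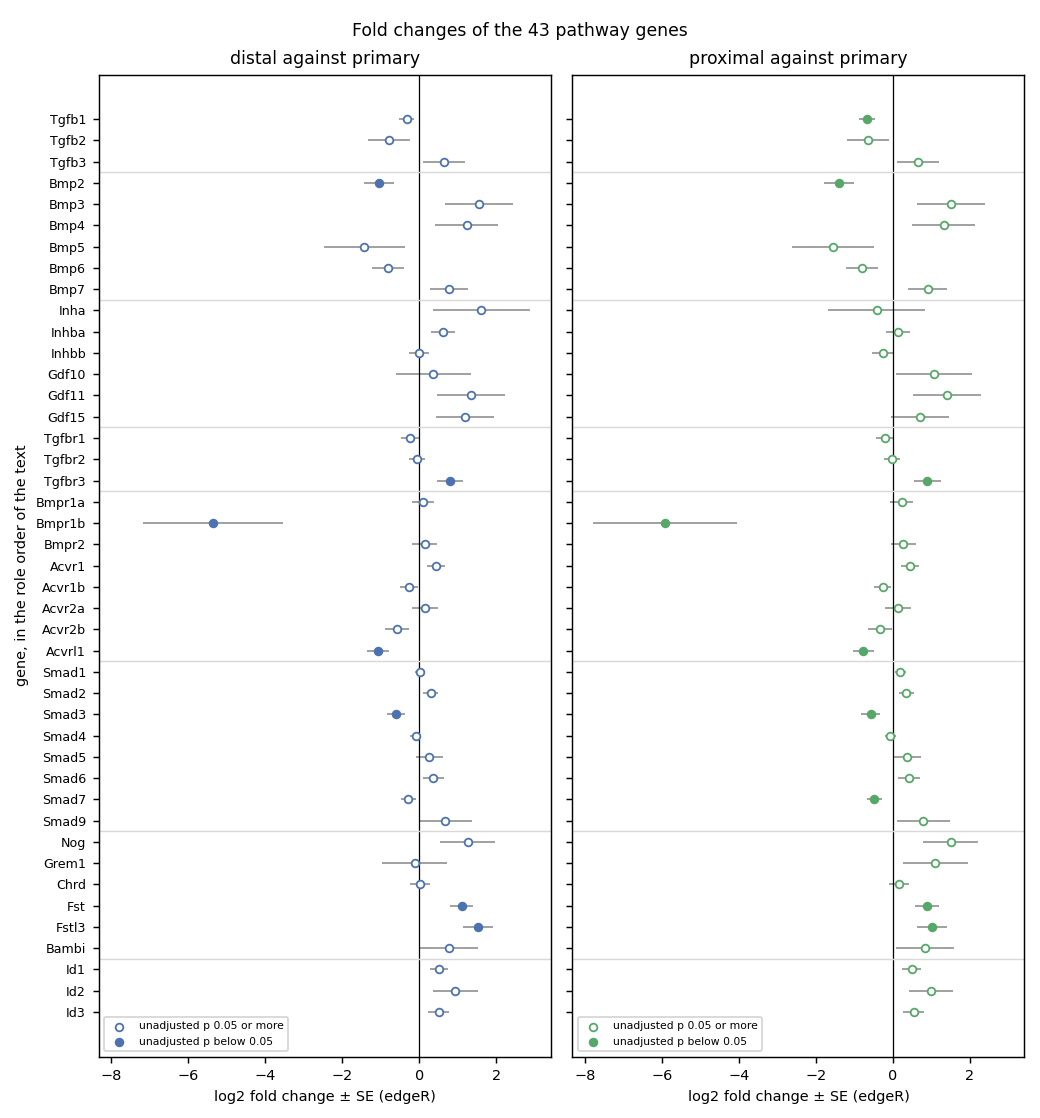
Log2 fold change (x axis, edgeR, point and SE bar) of the 43 genes in distal against primary (left) and proximal against primary (right), in the order of roles. Filled points have an unadjusted p below 0.05 (7 genes on the left, 9 on the right); none of the 43 passed the adjusted threshold, and both panels share the 3 primary libraries.

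Among the Smads, Smad3 and Smad7 were higher in primary 2 and 3 than in any metastasis. Smad3, at chr9:63646767-63757994, carries the TGF-beta and activin signal to DNA. Smad3 stood at 45.1, 43.5 and 44.9 CPM in distal 1 to 3, 39.7, 48.2 and 47.3 CPM in proximal 1 to 3 and 41.8, 79.8 and 81 CPM in primary 1 to 3. The metastases and primary 1 lay close together and primary 2 and 3 stood above all of them. Smad3 had a log2 fold change of −0.60 ± 0.24 in distal and −0.58 ± 0.24 in proximal against primary, at edgeR adjusted p = 0.268 and 0.264. Without primary 1 it was −0.83 and −0.81 (edgeR adjusted p = 0.00478 and 0.00469). Smad7 stood at 55.4, 61.5 and 64.5 CPM in distal 1 to 3, 55.1, 51.4 and 51.3 CPM in proximal 1 to 3 and 52.9, 79.5 and 88.7 CPM in primary 1 to 3. Smad7, an inhibitory Smad induced by TGF-beta, was lower in every proximal than in every distal library, narrowly so between proximal 1 and distal 1, and in primary tumours it was again primary 2 and 3 that stood highest. Smad7 had a log2 fold change of −0.29 in distal and −0.49 in proximal against primary, at edgeR adjusted p = 0.404 and 0.249. Without primary 1 it was −0.46 and −0.66 (edgeR adjusted p = 0.0311 and 0.00897). In distal against proximal metastases its log2 fold change was 0.20 ± 0.19, at an unadjusted edgeR p of 0.324.

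Smad4 stood at 94.1, 91.8 and 86.9 CPM in distal 1 to 3, 97.7, 90.2 and 89.1 CPM in proximal 1 to 3 and 104, 79.6 and 107 CPM in primary 1 to 3. Levels of Smad4, the common partner, overlapped between the groups. Smad5 stood at 178, 190.1 and 146 CPM in distal 1 to 3, 201, 159 and 193 CPM in proximal 1 to 3 and 212, 69.1 and 146 CPM in primary 1 to 3. Smad5, which carries BMP signals, was lowest in primary 2. Smad1, a further BMP-activated Smad, held 71.6 to 85.3 CPM in distal, 81.8 to 90.8 CPM in proximal and 67 to 80.2 CPM in primary libraries. Smad2, the second TGF-beta-activated Smad, held 65.8 to 71, 63 to 76 and 41 to 70.3 CPM, and the inhibitory Smad6 37 to 39.8, 34.9 to 41.3 and 16.2 to 36.7 CPM in distal, proximal and primary libraries. Smad9 stood at 10.1, 8.65 and 10.3 CPM in distal 1 to 3, 11.8, 11 and 8.45 CPM in proximal 1 to 3 and 9.42, 0.820 and 7.84 CPM in primary 1 to 3. Smad9 was far lower in primary 2 than in any other library.

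All 6 antagonists lay below all 6 metastases in primary 3, while 4 of 6 did in primary 2 and 2 of 6 in primary 1, against 36.7%, 42.7% and 13.1% of all genes. Follistatin (Fst), at chr13:114452290-114458951, binds and neutralises activins. Fst stood at 49.2, 42.4 and 47.2 CPM in distal 1 to 3, 32.1, 57.1 and 30.1 CPM in proximal 1 to 3 and 29.1, 18.9 and 16.8 CPM in primary 1 to 3. All 6 metastases were above all 3 primary libraries, with proximal 3 and primary 1 adjacent. Fst had a log2 fold change of 1.10 ± 0.30 in distal and 0.88 ± 0.30 in proximal against primary, at edgeR adjusted p = 0.161 and 0.212. By DESeq2 Fst was called higher in distal than in primary tumours (1.10, adjusted p = 0.0131), and without primary 1 it was called by edgeR in both comparisons (1.40 and 1.18, adjusted p = 0.0152 and 0.0242). Without proximal 2 the value in proximal was 0.54. Fstl3, at chr10:79777272-79782630, encodes a follistatin-like activin and myostatin inhibitor. Fstl3 stood at 13, 6.93 and 18.6 CPM in distal 1 to 3, 8.77, 9.88 and 8.47 CPM in proximal 1 to 3 and 6.01, 3.16 and 4.18 CPM in primary 1 to 3. All metastases were again above all primary libraries, with distal 2 and primary 1 adjacent. Fstl3 had a log2 fold change of 1.52 ± 0.39 in distal and 1.02 ± 0.39 in proximal against primary, at edgeR adjusted p = 0.150 and 0.242. By DESeq2 it was called higher in distal than in primary tumours (1.53, adjusted p = 0.00389). The exons of Fstl3 overlap Prss57 on the other strand, and reads of the pair cannot be told apart without strand. The same limit holds for Fst and Acvrl1, and for Tgfb2, Tgfb3, Bmp4, Bmp5, Bmpr1a, Acvr2a and Chrd. Each of these has exons that overlap a gene on the other strand, and Smad5 overlaps a gene on its own strand.

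Noggin (Nog), at chr11:89300638-89302332, binds BMP2 and BMP4 and keeps them from their receptors. Nog stood at 54.2, 32.1 and 36.7 CPM in distal 1 to 3, 51.8, 45.1 and 47.1 CPM in proximal 1 to 3 and 35.2, 2.69 and 13.2 CPM in primary 1 to 3. Primary 1 lay among the distal libraries, primary 3 below all metastases and primary 2 lowest. Nog had a log2 fold change of 1.27 ± 0.72 in distal and 1.49 ± 0.72 in proximal against primary (edgeR adjusted p = 0.356 and 0.297). Without primary 1 it was 2.38 and 2.61 (edgeR adjusted p = 0.0298 and 0.0218), and without primary 2 it was 0.76 and 0.99. Bambi stood at 243, 174 and 162 CPM in distal 1 to 3, 243, 158 and 201 CPM in proximal 1 to 3 and 212, 13 and 115 CPM in primary 1 to 3. Bambi, a pseudoreceptor that lacks the kinase domain, had the same order, with primary 1 inside the range of the metastases. Bambi had a log2 fold change of 0.77 ± 0.75 in distal and 0.82 ± 0.75 in proximal against primary (edgeR adjusted p = 0.539 and 0.499). The values were 1.61 and 1.66 without primary 1, where Bambi was not called by edgeR, and 0.24 and 0.30 without primary 2. Gremlin (Grem1) held 1.02 to 2.98 CPM in distal, 1.38 to 7.22 CPM in proximal and 0.407 to 3.81 CPM in primary libraries, and chordin (Chrd) 5.67 to 7.2, 6.19 to 8.4 and 5.13 to 7.92 CPM; both are secreted BMP traps.

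The Id genes encode inhibitors of helix-loop-helix transcription factors and are direct targets of BMP-activated Smads. Per kilobase of exon, Id3 and Id1 were the most abundant of the 43 genes, at 232 and 224 CPM per kb in distal, 237 and 218 in proximal and 163 and 156 in primary tumours. Id1 stood at 294, 249 and 237 CPM in distal 1 to 3, 266, 225 and 267 CPM in proximal 1 to 3 and 251, 155 and 139 CPM in primary 1 to 3. Id3 stood at 454, 416 and 374 CPM in distal 1 to 3, 429, 412 and 430.3 CPM in proximal 1 to 3 and 394, 172 and 307 CPM in primary 1 to 3. Both were lower in primary 2 and 3 than in any metastasis, while primary 1 lay within the range of the metastases. Id1 had a log2 fold change of 0.52 ± 0.23 in distal and 0.48 ± 0.23 in proximal against primary (edgeR adjusted p = 0.295 and 0.299), and that of Id3 was 0.51 ± 0.28 and 0.54 ± 0.28 (edgeR adjusted p = 0.343 and 0.307). Without primary 1, Id1 was called by edgeR in distal and in proximal against primary (0.85 and 0.81, adjusted p = 0.00899 and 0.00967), and Id3 likewise (0.81 and 0.84, adjusted p = 0.0481 and 0.0416). Without primary 2 the log2 fold change of Id3 was 0.24 and 0.27. Id2 stood at 121, 112 and 133 CPM in distal 1 to 3, 114, 126 and 138 CPM in proximal 1 to 3 and 101, 13.2 and 76.6 CPM in primary 1 to 3. All metastases were above all primary libraries for Id2, with primary 2 far below the rest. Id2 was chosen after its values were seen.

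Calls among the 43 genes depended on which primary libraries were used and how they were weighted. Without primary 1, edgeR called 14 of the 43 in distal against primary (9 higher, 5 lower), 15 in proximal against primary (9 higher, 6 lower) and 17 in both sites against primary (11 higher, 6 lower), where 27.4%, 28.7% and 34.8% of all genes were called. In both sites those higher were Bmp4, Bmp7, Gdf11, Tgfbr3, Acvr1, Smad2, Nog, Fst, Fstl3, Id1 and Id3, and those lower were Tgfb1, Bmp2, Bmpr1b, Acvrl1, Smad3 and Smad7. Leaving out any other single library gave no call among the 43 in any comparison. In those fits few genes were called at all, 0.116% to 1.33% of all genes in both sites against primary. In the other comparisons the share was 0% to 0.199%. With limma-voom and sample quality weights, which give less weight to libraries far from their group, 7, 11 and 11 of the 43 were called in distal, proximal and both sites against primary, where 17.2%, 19.8% and 21.3% of all genes were. None was called in distal against proximal, where 0% of all genes were. For the genes whose fold change is printed with its SE, its sign was kept under every setting tried, except for Tgfb2 without primary 3.

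Of 70 further pathway genes in lists by function, 56 passed the filter, and 3 were called by edgeR in both metastatic sites against primary, all lower. Over all genes 3.71% were called, 670 lower and 6 higher, so that calls in these lists were near that share and ran in its direction. The 3 genes called were Itgb6 among 10 latency and activation genes, Rgmb among 12 tested of 24 other ligands and coreceptors, and Ccn2 among 11 TGF-beta response genes. None of the lists of other secreted antagonists (9 tested of 11), intracellular regulators (10) and BMP response genes (11) had a call. These list sizes overlap. The BMP response list also holds Smad6, Smad7, Id1, Id2 and Id3, which belong to the 43 and are not further genes. Ltbp2 is in the latency and TGF-beta response lists, and Skil in the intracellular regulator and TGF-beta response lists. In distal against primary, proximal against primary and distal against proximal, none of the further genes was called by edgeR. Itgb6 encodes the integrin beta chain that, with alpha V, releases TGF-beta from its latent form. Itgb6 stood at 1.98, 2.95 and 3.77 CPM in distal 1 to 3, 2.19, 2.22 and 3.16 CPM in proximal 1 to 3 and 3.84, 56.6 and 45.3 CPM in primary 1 to 3. Primary 1 was close to the metastases and primary 2 and 3 were high. Itgb6 had a log2 fold change of −3.70 ± 0.65 in both sites against primary, at edgeR adjusted p = 0.0287. Rgmb, or Dragon, is a BMP coreceptor. Rgmb stood at 9.23, 8.22 and 8.2 CPM in distal 1 to 3, 9.17, 10.2 and 7.12 CPM in proximal 1 to 3 and 12.7, 18.5 and 26.6 CPM in primary 1 to 3. Every metastasis was below every primary library, and Rgmb fell by 1.15 ± 0.24 on the log2 scale at edgeR adjusted p = 0.0437. Ccn2, or connective tissue growth factor, is a matrix protein induced by TGF-beta. Ccn2 stood at 48, 75.9 and 91.2 CPM in distal 1 to 3, 37.5, 43.2 and 39.5 CPM in proximal 1 to 3 and 78.6, 302 and 154 CPM in primary 1 to 3. Distal 3 overlapped primary 1, and Ccn2 fell by 1.73 ± 0.37 on the log2 scale at edgeR adjusted p = 0.0457. None of these 3 calls held without primary 2, without primary 3 or without any single metastasis, where edgeR adjusted p ran from 0.0764 to 0.168, nor by limma-voom (adjusted p = 0.143 to 0.167), and all 3 held by DESeq2 and without primary 1. In those edgeR fits without a call the log2 fold change ran from −3.80 to −3.19 for Itgb6, from −1.19 to −0.84 for Rgmb and from −1.82 to −1.12 for Ccn2, whose smallest change was without primary 2. Rgmb was also not called with library totals alone (edgeR adjusted p = 0.0747) or with no filter on low counts (0.0556), nor Ccn2 with a minimum of 1 CPM in 3 libraries (0.0504).

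**Figure D5:**
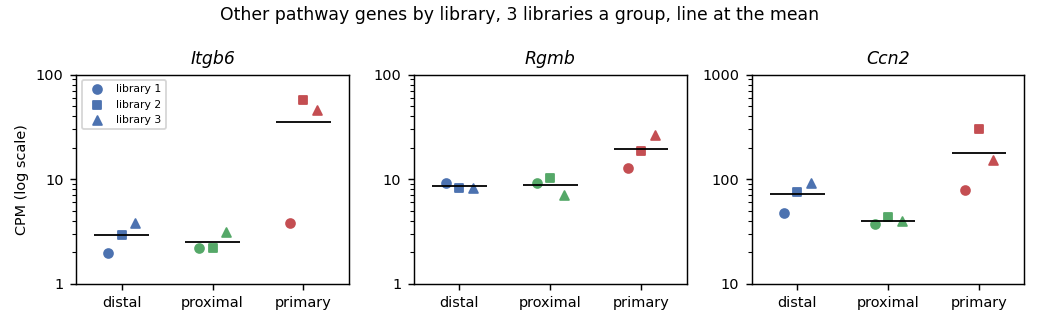
Level (y axis, CPM on a log scale) of 3 further pathway genes in each library by group (x axis), with the marker shape giving the library number and the line the group mean of 3. Itgb6, Rgmb and Ccn2 are highest in primary 2 or 3.

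Hjv, the hemojuvelin coreceptor, stood at 0.575, 3.67 and 5.77 CPM in distal 1 to 3 and at most 0.235 CPM elsewhere. Distal 2 and 3 are also the libraries with 574 and 791 CPM of skeletal muscle markers, all 6 of which exceeded 1 CPM there, and the part of muscle in the level of Hjv was not tested. In the other lists, Nedd4l, a ubiquitin ligase for activated Smads, and Ski, a Smad corepressor, were highest in primary 2 and 3. Nedd4l stood at 24.9, 23.7 and 28.8 CPM in distal 1 to 3, 25.9, 24.1 and 26 CPM in proximal 1 to 3 and 28.5, 76.4 and 62.9 CPM in primary 1 to 3. Ski stood at 109, 114 and 115 CPM in distal 1 to 3, 119.7, 117 and 104 CPM in proximal 1 to 3 and 119.6, 209.6 and 185 CPM in primary 1 to 3. Zfyve9, the anchor that presents Smad2 and Smad3 to the receptor, was lowest in the same 2 libraries. Zfyve9 stood at 70.1, 71.7 and 66.7 CPM in distal 1 to 3, 78.7, 64.7 and 76.3 CPM in proximal 1 to 3 and 65.5, 45.8 and 45.1 CPM in primary 1 to 3. Htra1, a secreted protease that binds TGF-beta family ligands, stood at 1344, 1090 and 1195 CPM in distal, 1335, 1244 and 1080 CPM in proximal and 1053, 72.9 and 217 CPM in primary 1 to 3. Primary 2 and 3 were thus far below all other libraries for Htra1.

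The other genes that the naming rule took from these lists were not called by edgeR in any comparison. Itgb8, another integrin chain that activates TGF-beta, held 4.28 to 4.74 CPM in distal, 4.75 to 5.92 CPM in proximal and 7.2 to 23 CPM in primary libraries. Ltbp3, which anchors latent TGF-beta in the matrix, held 148 to 167 CPM in distal, 145 to 179 CPM in proximal and 154 to 285 CPM in primary libraries. Rgma, a BMP coreceptor related to Rgmb, held 1.5 to 2.0 CPM in distal, 1.83 to 3.06 CPM in proximal and 3.2 to 5.57 CPM in primary libraries. For Itgb8 and Rgma every metastasis lay below every primary library, and for Ltbp3 the groups overlapped. Cdkn2b, the cyclin kinase inhibitor p15 induced by TGF-beta, held 12 to 13.3 CPM in distal, 8.72 to 12.5 CPM in proximal and 15.1 to 24.8 CPM in primary libraries, again without overlap. The homeobox gene Msx2, a BMP target, held 7.96 to 11.3 CPM in distal, 5.36 to 10 CPM in proximal and 5.75 to 60.9 CPM in primary libraries, with primary 3 far above the rest. Its relative Msx1 and the Id gene Id4 were also highest in primary 3, at 5.16 and 8.42 CPM. The BMP antagonist Chrdl1 reached at most 5.57 CPM and the Nodal antagonist Dand5 at most 6.13 CPM in any library.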

How the data were processed

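RNA was sequenced in bulk from 9 mouse libraries, 3 distal metastases, 3 proximal metastases and 3 primary prostate tumours. The deposited files held raw, whole-number read counts per Ensembl gene, 1 library each, as the authors made them. Per the submitters' processing notes, the software included FastQC 0.11.4, the aligners Bowtie2 2.2.6.0 and TopHat2 2.1.0, the counter HTSeq 0.6.0, and DESeq2 1.14.1 with R 3.2.3, and the build was GRCm38.p3. Strand setting and annotation release were not given in the sources used, so antisense and overlapping genes are uncertain.

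Of 47069 identifiers, 46488 were matched to a symbol with GENCODE M21 on GRCm38, which also gave positions and exon lengths. At 1 CPM before scaling, a gene holds 28.3 to 40.4 counts in a library. Genes passing edgeR's filterByExpr (minimum count 10, minimum total 15) were tested with the quasi-likelihood test with robust shrinkage in edgeR 4.0.16, on all 9 libraries (6 residual degrees of freedom), with Benjamini-Hochberg adjustment over all 18204 genes. SEs are the absolute log2 fold change over the square root of F. The 4 comparisons set each metastatic site against primary tumours, distal against proximal metastases, and the average of the metastatic sites against primary tumours. The fit, tested on simulated data first, took 1 dispersion per gene for all groups although primary libraries varied more, so SEs and p-values against primary can be too small and those of distal against proximal too large. No pair of libraries agreed within sampling noise (chi-square per gene at least 25.4). The labels do not say which libraries share a mouse, so p-values treat libraries as independent. Alternatives were 2 other scalings, DESeq2 1.42.0, limma-voom (limma 3.58.1) with and without sample quality weights, 2 other filters, edgeR without robust shrinkage, fits of the compared groups alone, removal of the 37 mitochondrially encoded and 10 most abundant genes, and leaving out each library.

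The 43 genes, the lists and the tests were chosen with earlier results of these data known. Values in every library are given for genes at an unadjusted p below 0.05 in any comparison, the 2 most abundant per kilobase in each role group, and those without overlap and with an absolute log2 fold change of at least 1. From each list of further genes those called and up to 3 with the smallest p were named. A further engineered allele that all groups carry and 1 of the further genes are not reported here. Promoter windows came from RefSeq on GRCm38.p6, for 30 of the 43 genes.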

Additional observations from a re-analysis of the deposited data

How the results depend on the processing

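The count of called genes among the 43 was 0 in each comparison by edgeR. It stayed 0 in distal against proximal under every alternative, and in the comparisons against primary under both other scalings, limma-voom, both other filters, no robust shrinkage, the fit of the compared groups alone (run for single sites) and removal of the mitochondrial and most abundant genes. In distal, proximal and both sites against primary, DESeq2 called 3, 2 and 4 of the 43, and limma-voom with sample quality weights 7, 11 and 11. Leaving out 1 library at a time gave 0 to 14, 0 to 15 and 0 to 17 calls, the highest each time without primary 1, and 0 in distal against proximal. Over all genes, the counts by edgeR, DESeq2, weighted voom and edgeR without primary 1 were 16, 1517, 3126 and 5203 in distal, 9, 1539, 3607 and 5447 in proximal, and 676, 2541, 3871 and 6618 in both sites against primary. limma-voom called 1, 1 and 97. In distal against proximal at most 0.576% of all genes were called under any alternative.

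Among 61 fold changes recomputed 1134 times in all, the sign turned 3 times: without primary 3 the log2 fold change of Tgfb2 was 0.23 in distal, 0.36 in proximal and 0.29 in both sites against primary, and its level in primary 3 (134 CPM) is the value left out. Over all libraries left out in turn it ran from −1.17 to 0.23, −1.03 to 0.36 and −1.10 to 0.29 in these comparisons. In 73 cases an uncalled fold change was called and in 30 a called one, of Itgb6, Rgmb or Ccn2, was not. The alternatives for these 3 genes were added after seeing the data. No paired analysis was possible because the labels do not say which libraries came from the same mouse, and the library numbers carry no pairing. With 3 libraries a group and primary libraries that differ from each other, differences smaller than this spread were not detectable.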
